A study of Mus musculus with 12 samples.

Results

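The comparison described here is high functioning against low functioning soleus in the mice that had no laparotomy: 3 high functioning (HF) and 3 low functioning (LF) control libraries, 6 of the 12 libraries of the series. Soleus is a postural hind limb muscle rich in slow, oxidative fibres. All mice were C57BL/6N males of 24 months from the NIA aging colony, housed individually and given 8 weeks of voluntary wheel running. HF and LF name how the animals performed on an accelerating rotarod, a test of balance and endurance on a turning rod, so the groups were sorted by performance and not made by a genotype or a drug. Libraries of laparotomy mice (3 HF and 3 LF, muscle taken 5 days after surgery) give the same contrast in other libraries. They also enter the estimate of spread behind the control p-values, the gene filter and the leading principal component. The labels call the unoperated animals control and do not say whether they had anaesthesia, nor whether each library is a separate mouse, so every p-value measures only the spread between these libraries. The members are the 10757 genes, of 30323 in the table, whose mean over all 12 libraries was at least 1 TPM (transcript abundance scaled to a fixed library total).

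Muscle of old animals is known for a loss of mass and strength in which protein synthesis, mitochondrial fuel use and the fibres' anchoring to their matrix all take part. Ribosomal proteins are the structural parts of the machine that makes protein, and their mRNAs form a co-regulated family. Pyruvate dehydrogenase and the citric acid cycle feed electrons to the respiratory chain, and the transcriptional coactivator PGC-1alpha drives the genes of both in oxidative fibres.

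In the HF controls the mRNAs of cytosolic ribosomal proteins stood higher: 48 of 77 tested members were called higher and 0 lower. Genes of the citric acid cycle and of pyruvate dehydrogenase control stood lower, 11 of 28 called, with Pdpr, Dlst and Pdp1 in front. Ppargc1a, Ppara, the dystrophin complex gene Sgcd and the sodium channel gene Scn4a were called lower too, while 8 of 37 complex I genes (3 with the trend of transcript length and GC content removed) and 3 of 25 endothelial markers were called higher. Over all tested genes 2.44% were called higher and 8.04% lower. The 3 LF controls and the 3 HF controls lay apart on the leading principal component of the 12 libraries' log2(TPM + 1), at -14.4, -20.3 and -23.3 against 14.6, 1.19 and 17.6, with a two-sided exact permutation p of 0.1, the smallest that 3 against 3 can give.

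Over all members, 1127 genes passed an adjusted p of 0.05, which is 10.5% of those tested. Of these 262 were higher in HF controls (2.44% of tested genes) and 865 lower (8.04%). The call is limma's moderated test on log2(TPM + 1) with the spread estimated over all 4 groups. The libraries of the groups did not overlap for 4349 genes (40.4%), and for 1126 of the 1127 called genes. TPM is scaled to a fixed total, and as deposited the median gene was lower in HF by a log2 difference of -0.11. Differences below are therefore given relative to the median tested gene, as log2(TPM + 1) ± standard error with n = 3 in each group, and the adjusted p tests the difference as deposited. The split moved with the scaling: size factors called 974 higher (9.05%) and 960 lower (8.92%), and quantile normalization 945 higher and 1141 lower. Most calls were modest in size, with a median of 0.59 among the higher genes and -0.43 among the lower, and only 8 higher and 27 lower genes lay more than 1 log2 unit from the median gene.

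**Figure D1:**
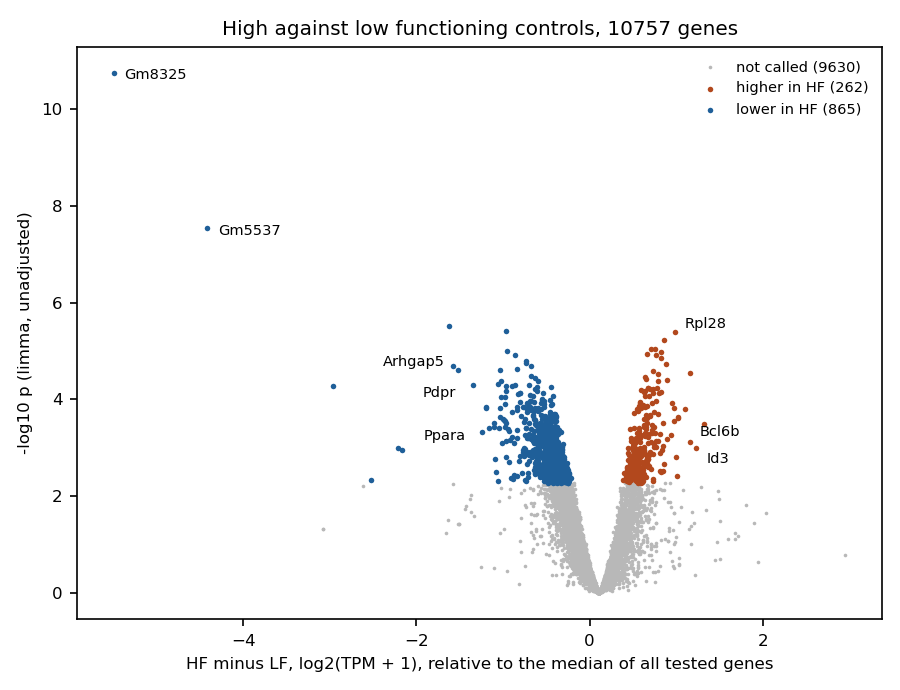
Each point is a gene: the horizontal axis is its HF minus LF control difference in log2(TPM + 1) relative to the median tested gene, and the vertical axis is -log10 of the unadjusted limma p. The 262 higher genes are orange and the 865 lower genes blue. The point of the grey V lies right of 0 because the test uses the values as deposited. The pseudogenes Gm8325 and Gm5537 stand far to the left of all other called genes.

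The number of calls depended on single libraries. Leaving out LF control 1 left 735 calls, LF control 2 left 2, LF control 3 left 48, HF control 1 left 47 and HF control 3 left 66. Leaving out HF control 2 gave 1365. With 1 laparotomy library left out, counts ran from 579 (without HF laparotomy 2) to 2080 (without LF laparotomy 1), and dropping LF laparotomy 3 gave 2054. In these fits the laparotomy libraries enter the control contrast only through the shared spread. Genes at an unadjusted p below 0.05 were 3429 with all libraries and 2348 to 3924 with 1 left out. All 1127 called genes kept an unadjusted p below 0.05 and their side of the median gene in each of the 12 fits with 1 library left out. These genes were chosen by a stricter cutoff in the same libraries, so this is not separate support. Only 2 of them, Gm8325 and Gm5537, kept an adjusted p below 0.05 in every such fit. Leaving out the 3 libraries with Myh4, the fastest myosin, above 30 TPM (LF control 3, LF laparotomy 1 and HF laparotomy 2) gave 163 calls.

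**Figure D2:**
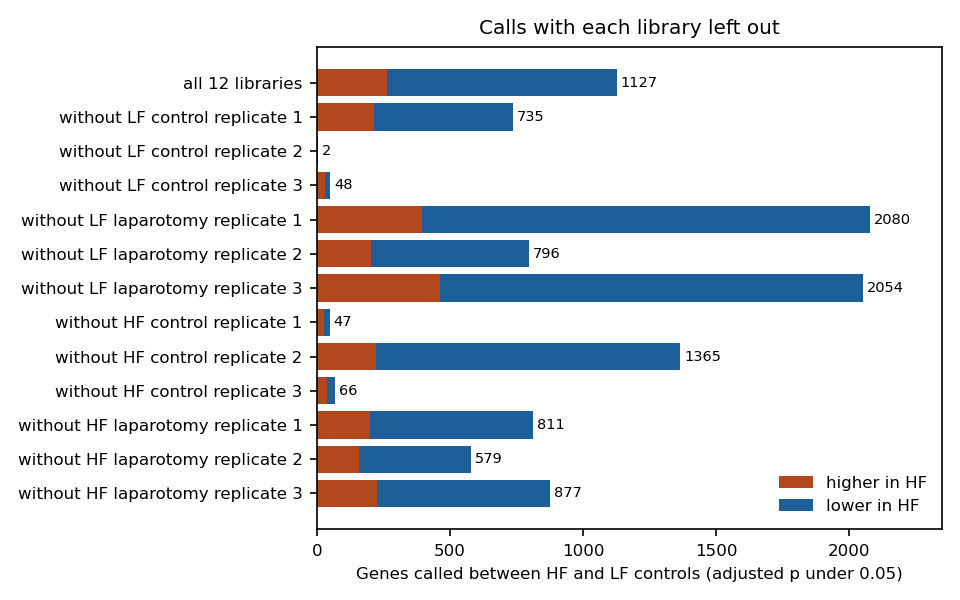
Horizontal bars count the genes called between HF and LF controls at an adjusted p below 0.05, orange for higher and blue for lower, with all 12 libraries and with each left out in turn. The bars shrink to between 2 and 66 calls without LF control 2, LF control 3, HF control 1 or HF control 3.

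The groups also parted on pseudogenes that copy other genes. Gm8325, a transcribed processed pseudogene at chr3:60877014-60877587 (GRCm38) with a near-identical copy in the ubiquitin-conjugating enzyme gene Ube2v1, measured 51.6, 41.8 and 50.2 TPM in the LF controls and was listed at 0 in all 3 HF controls. Gm5537, a processed pseudogene of the glycolytic gene Pgk1 at chr3:58102996-58104247, measured 24.6, 12.98 and 32.9 TPM in the LF controls and was listed at 0 in all 6 HF libraries of the series. The parent genes did not show this: Pgk1 measured 232, 247 and 242 TPM in LF and 178, 220.1 and 198 TPM in HF controls (adjusted p = 0.0754).

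In all, 5 genes were listed at 0 in the 3 HF controls and above 1 TPM in the 3 LF controls, all of them pseudogenes, and 4 of the 5 were at 0 in all 6 HF libraries. The reverse held for 1 gene, also a pseudogene. Pseudogenes as a class did not lean to 1 side: of 217 tested, 18 were called higher and 18 lower. Entpd4, a Golgi and lysosomal nucleotidase gene, and its near-identical neighbour Entpd4b were listed at equal values in HF control 1 (16.9 TPM each) and HF control 3 (18.6 TPM each), but at 39.2 against 20.8 TPM in LF control 1. These genes were singled out after their values were seen. The labels do not say whether HF and LF libraries were prepared, sequenced and quantified in the same way, and such a difference cannot be told apart from muscle function. Of the 1127 calls, 1070 were neither pseudogenes nor had a near-identical copy, 233 of them higher.

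Cytosolic ribosomal proteins formed the group with the most higher calls among the lists examined. Their median difference was 0.52, where the median over all tested genes is 0, and 69 of the 77 tested members had all HF controls above all LF controls, as did 9.11% of all tested genes. Rpl28, a large subunit protein gene on chromosome 7 (chr7:4792874-4795066), measured 166, 126 and 159.8 TPM in LF and 269, 292 and 266 TPM in HF controls (0.98 ± 0.12, adjusted p = 0.00873). Its exons overlap those of Ube2s on the opposite strand, and no source used here tells whether reads were assigned by strand, so its level is uncertain. Rps29, of the small subunit, measured 716, 636 and 760.4 TPM against 1039, 1059 and 1110.0 TPM (0.71 ± 0.09, adjusted p = 0.0101). Every HF control lay above every LF control for both genes, as the rule that chose them required.

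Rps20, also of the small subunit, measured 217, 209 and 210.1 TPM in LF and 357, 325 and 319.6 TPM in HF controls (0.76 ± 0.09, adjusted p = 0.0101). Rpl38, of the large subunit, stood at 408, 394 and 430.4 TPM against 619, 604 and 585 TPM (0.66 ± 0.08, adjusted p = 0.0101). Rps16 gave 0.77 ± 0.10, Rps21 0.82 ± 0.11 and Rpl27a 0.78 ± 0.12, with adjusted p from 0.0101 to 0.0137. Not every member was raised: Rpl10 lay at -0.25 and Rpsa at 0.03, neither called. Summed over the list, cytosolic ribosomal protein mRNA was 2.58%, 2.30% and 2.596% of TPM in LF controls and 3.37%, 3.32% and 3.20% in HF controls (two-sided exact permutation p = 0.1). Translation factors, the soluble proteins that work with the ribosome, had 0 of 46 higher and 2 lower, against 2.44% and 8.04% of all tested genes. The lower ones included the translation repressor gene Eif4ebp2 (-0.37 ± 0.13, adjusted p = 0.0358). With size factors 71 of the 77 ribosomal genes were higher and 0 lower, and of the translation factors 9 were higher and 2 lower. Size factors called 9.05% of all tested genes higher and 8.92% lower. Without the 3 libraries with Myh4 above 30 TPM, 17 ribosomal genes were higher and 0 lower, with a median of 0.53.

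Ribosomal protein transcripts are short, and differences between the groups followed transcript length. Across 10686 genes with an annotated transcript the Spearman correlation of the HF minus LF difference with length was -0.37 and with GC content 0.29, a description over genes of the same 6 libraries. The quartile of shortest genes had a median difference of 0.17 with 163 higher and 52 lower calls, and that of the longest a median of -0.12 with 27 higher and 373 lower. With the length and GC trend removed, 47 of the 77 ribosomal genes were called higher and 0 lower, and their median was 0.34. Removing that trend left 538 higher and 638 lower genes in all, and 673 of the 1127 calls stood in the same direction.

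Many ribosomal protein mRNAs are known to begin with a run of pyrimidines, the terminal oligopyrimidine tract, through which mTOR signalling controls their translation. The 30 bases around the annotated start are shown for the 4 leading ribosomal genes with a single annotated start and, for contrast, for 3 leading lower genes, with 15 bases before the start and 15 from it on, from RefSeq (GRCm38.p6). Capitals mark the longest run of C and T that holds a base within 5 bases of the start.
Rpl28, chr7:4792950-4792979, + strand: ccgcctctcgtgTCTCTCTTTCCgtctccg
Rpl38, chr11:114668565-114668594, + strand: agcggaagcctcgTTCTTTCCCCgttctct
Rps16, chr7:28350674-28350703, + strand: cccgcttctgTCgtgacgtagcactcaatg
Rpl27a, chr7:109519180-109519209, + strand: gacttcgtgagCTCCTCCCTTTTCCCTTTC
Efr3b, chr12:4038901-4038930, - strand: agagcaggaggcggcagCCaacctcgtcgc
Acadsb, chr7:131410586-131410615, + strand: tggggttccgTaggcggcagtgggcgggga
Sbk3, chr7:4970947-4970976, - strand: cccaaagagTCCCCCagtgaacaaagacca

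The run was 11 bases in Rpl28, 10 in Rpl38, 20 in Rpl27a (it passes the end of the window) and 2 in Rps16. A run of at least 8 such bases stood at 23 of 67 annotated starts (34.3%) of 57 tested ribosomal genes, at 9.76% of 10671 starts of all tested genes and at 9.38% of all 32851 starts in the table. The gene strand was searched. This is a property of the annotated sequence: RNA levels do not measure translation, and a short run says only that these letters are not in this window.

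**Figure D3:**
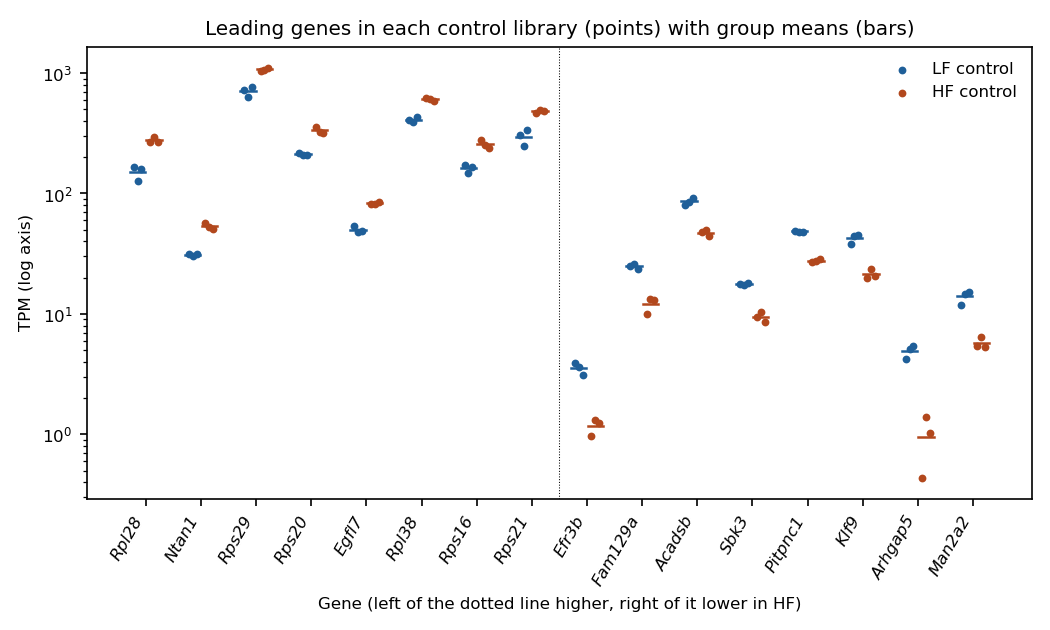
TPM on a log axis in each LF control (blue) and HF control (orange) for the 8 higher and 8 lower genes of smallest p, points for libraries and bars for group means of 3. In all 16 genes the points of the groups do not overlap, and the rule that chose these genes required this.

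Outside the ribosome, the leading higher genes were a mixed set. Ntan1, an amidase of the N-degron pathway of protein breakdown, measured 31.5, 30.3 and 31.5 TPM in LF and 57.1, 52.5 and 50.3 TPM in HF controls (0.86 ± 0.10, adjusted p = 0.0101). Its exons overlap Pdxdc1 on the opposite strand. Xpo6, the nuclear exporter of actin, gave 0.89 ± 0.13, Dgkz, a diacylglycerol kinase, 0.67 ± 0.10, Ncapd2, a condensin subunit, 0.79 ± 0.11, and Myl10, a myosin light chain, 0.68 ± 0.10, with adjusted p from 0.0127 to 0.0137. Arhgap29, a GTPase-activating protein gene, was low in both groups, at 1.39, 1.12 and 0.989 against 3.17, 2.21 and 2.76 TPM (0.88 ± 0.12, adjusted p = 0.0117). The 5 largest differences among the higher genes that the naming rule allows were Id3 (1.23), Bcl6b (1.16), Ccnk (1.03), Hey1 (0.999) and Rpl28. Id3, an inhibitor of basic helix-loop-helix factors, measured 19.3, 13.2 and 14.7 TPM in LF and 42.2, 23.8 and 42.9 TPM in HF controls (adjusted p = 0.0269), with HF control 2 nearest to the LF range.

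Enzymes that admit pyruvate to the citric acid cycle and turn it there were lower in HF controls. Of 28 tested members 11 were called lower and 0 higher, against 8.04% lower among all genes, and the list's median was -0.31. Pdpr, the regulatory subunit of pyruvate dehydrogenase phosphatase (chr8:111094630-111137074), measured 23.8, 30.5 and 31.0 TPM in LF and 7.73, 11.2 and 10.4 TPM in HF controls (-1.35 ± 0.25, adjusted p = 0.0137). Dlst, the succinyltransferase of the 2-oxoglutarate dehydrogenase complex (chr12:85110833-85134845), stood at 125, 133 and 142 TPM against 48.3, 72.3 and 63.5 TPM (-1.02 ± 0.19, adjusted p = 0.0137). Pdp1, the catalytic subunit of that phosphatase, measured 32.2, 32.9 and 35.2 TPM against 18.6, 23.4 and 20.8 TPM (-0.55 ± 0.12, adjusted p = 0.0155). No HF control reached the lowest LF control for any of them. The rule that chose Pdpr and Dlst required this, and it held for 1126 of the 1127 called genes.

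The same list held Ogdh (-0.64 ± 0.14), the first enzyme of the 2-oxoglutarate complex, Mdh1 (-0.53), Dlat (-0.45 ± 0.10), a pyruvate dehydrogenase core subunit, and Cs (-0.44 ± 0.11), citrate synthase, a usual marker of mitochondrial content. Dld, Sucla2 and Suclg2 were further called members, between -0.39 and -0.32. Removal of the length and GC trend again left 11 of 28 lower, and so did size factors. Without the 3 libraries with Myh4 above 30 TPM, 3 of the 28 were lower, where 117 of all tested genes were. The list's median was then -0.245.

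Ppargc1a and Ppara, regulators of oxidative metabolism, were called lower. Ppargc1a, which encodes PGC-1alpha (chr5:51454250-51567726), measured 7.96, 10.4 and 9.40 TPM in LF and 3.71, 4.70 and 4.52 TPM in HF controls (-0.84 ± 0.18, adjusted p = 0.0161). Ppara, the nuclear receptor of fatty acid oxidation, stood at 6.67, 7.84 and 8.81 TPM against 2.38, 2.83 and 2.08 TPM (-1.25 ± 0.29, adjusted p = 0.0215). Both genes had HF controls wholly below LF controls, which the naming rule required of Ppara. The groups did not overlap for 1126 of the 1127 called genes. Against 8.04% lower and 2.44% higher over all genes, the list of mitochondrial biogenesis and dynamics had 5 of 26 lower and 1 higher. Its median was -0.19. The lower ones included Opa1, which fuses inner membranes (-0.73 ± 0.18, adjusted p = 0.0208), Gabpa (-0.62) and Tfam (-0.32), and the higher one was Polrmt, the mitochondrial RNA polymerase (0.67 ± 0.14, adjusted p = 0.032).

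Fuel uptake and storage genes gave fewer calls. Of 44 tested genes of fatty acid handling 4 were lower and 1 higher, with a median of -0.16. These counts were near the shares over all tested genes, 8.04% lower and 2.44% higher. Acsl1, which activates long-chain fatty acids, measured 171, 172 and 194 TPM in LF and 98.3, 122 and 108 TPM in HF controls (-0.60 ± 0.12, adjusted p = 0.0137). Acadsb, a short branched-chain acyl-CoA dehydrogenase that was not in the list, was among the leading lower genes at 81.0, 84.8 and 92.0 against 47.9, 50.02 and 44.2 TPM (-0.74 ± 0.13, adjusted p = 0.0115). The higher one was Fabp4, a fatty acid carrier of fat and endothelial cells (0.68 ± 0.15, adjusted p = 0.037).

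Glycolysis and glycogen genes had 9 of 42 lower and 1 higher, against 8.04% and 2.44% of all genes, with a median of -0.22. Ppp1r3a, which targets a phosphatase to glycogen, measured 28.2, 38.95 and 36.2 TPM in LF and 18.7, 19.3 and 18.0 TPM in HF controls (-0.73 ± 0.15, adjusted p = 0.0155). Phkg1, a phosphorylase kinase subunit whose exons overlap Sumf2 on the opposite strand, gave -0.59 ± 0.15. Slc2a4, the insulin-responsive glucose transporter, was called lower at -0.53 and Hk2, hexokinase 2, called higher at 0.49 ± 0.10 (adjusted p = 0.0403). Both catalytic subunits of AMP kinase, the energy sensor, were lower: Prkaa2 measured 27.4, 35.1 and 34.2 TPM in LF and 16.4, 18.1 and 16.4 TPM in HF controls (-0.77 ± 0.17, adjusted p = 0.0157), and Prkaa1 gave -0.34 ± 0.12 (adjusted p = 0.0414). Of the 10 tested AMP kinase genes 2 were called.

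In the respiratory chain most calls were higher. Of 37 nuclear complex I genes 8 were called higher and 1 lower, with a median of 0.34, against 2.44% higher among all genes. Ndufb7, an accessory subunit, measured 328, 247 and 317 TPM in LF and 412, 442 and 485 TPM in HF controls (0.70 ± 0.14, adjusted p = 0.0286). The one lower member, Ndufs1, carries iron-sulphur clusters in the core of the complex and stood at 231, 253 and 267 against 189, 187 and 187 TPM (-0.30 ± 0.11, adjusted p = 0.0403). In complexes II to IV 3 of 28 were higher, led by Cox6a2, the muscle form of a cytochrome oxidase subunit (0.60 ± 0.13, adjusted p = 0.0337), and 2 were lower, Uqcrc2 (-0.40 ± 0.10, adjusted p = 0.0184) and Sdha, the catalytic subunit of succinate dehydrogenase (-0.44 ± 0.14, adjusted p = 0.0305). ATP synthase had 1 of 17 higher, Atp5mpl (0.43 ± 0.10).

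These subunits are mostly short genes. With the length and GC trend removed the higher calls became 3 in complex I, 0 in complexes II to IV and 1 in ATP synthase. The lower calls were then 1, 2 and 0, and the medians 0.24, 0.10 and 0.14. Over all tested genes 538 were then higher and 638 lower. Mitochondrial ribosomal proteins had 2 of 77 higher and 2 lower, against 2.44% and 8.04% of all tested genes. Their median of 0.21 became 0.09 with that trend removed. With size factors the higher calls were 14 in complex I, 9 in complexes II to IV, 5 in ATP synthase and 23 among mitochondrial ribosomal proteins. The lower calls were then 0, 2, 0 and 1. Over all tested genes size factors called 9.05% higher and 8.92% lower. Without the 3 libraries with Myh4 above 30 TPM, complex I had 0 higher calls and a median of 0.39. The 13 mitochondrially encoded genes gave 0 calls at limma's adjusted p below 0.05 (0 at an unadjusted p below 0.05) and a median of 0.08. Their summed share of TPM was 34.7%, 39.7% and 30.6% in LF and 35.4%, 35.0% and 32.3% in HF controls, a difference of -0.81 percentage points (two-sided exact permutation p = 1).

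**Figure D4:**
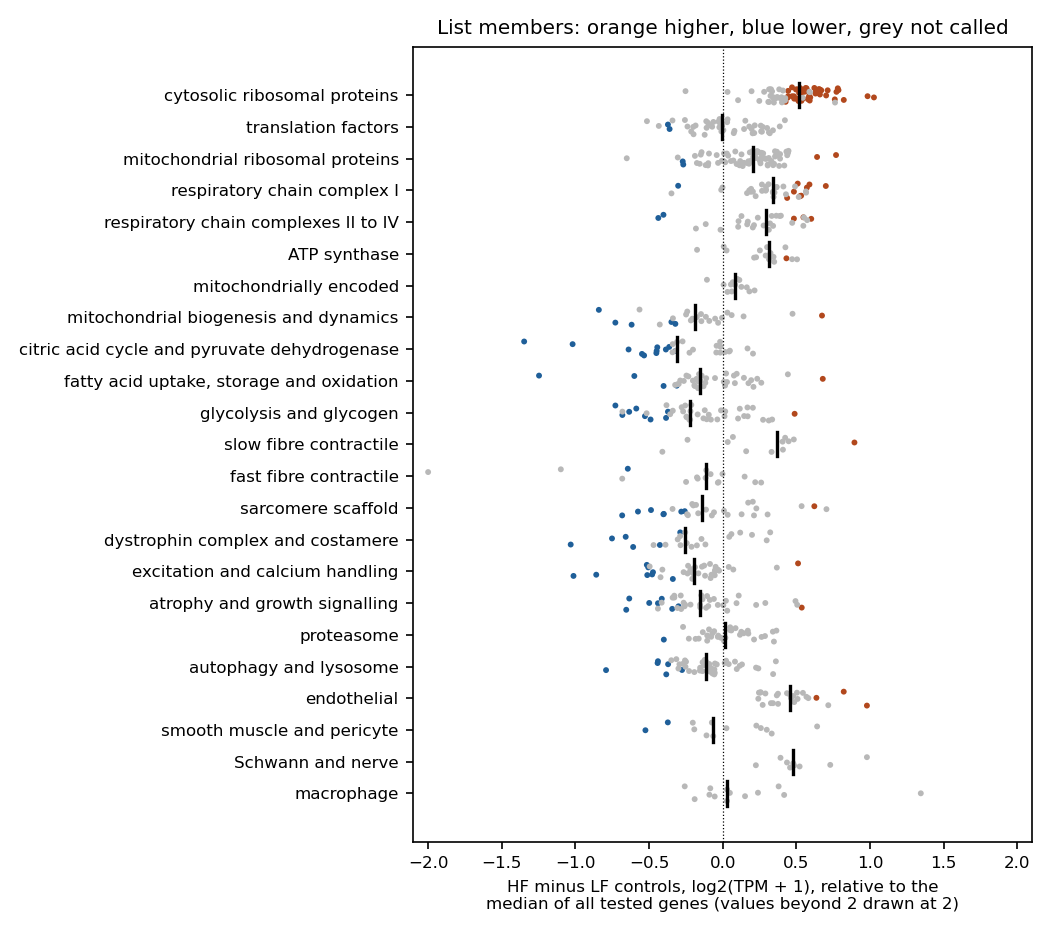
Each point is a tested gene of the list named at the left, placed by its HF minus LF control difference in log2(TPM + 1) relative to the median tested gene (dotted line at 0); orange is called higher, blue lower, grey not called, and the black tick is the list's median. Ribosomal proteins sit furthest right of the lists drawn, with a median of 0.52, and the citric acid cycle furthest left at -0.31.

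Contractile genes gave 1 call of 12 in the slow fibre list and 1 of 16 in the fast fibre list. These counts were near the share over all tested genes, 10.5%. The libraries expressed the soleus fibre genes: Myh7, the slow myosin, ranged from 2369 to 3339 TPM and Myh4, the fastest, from 3.05 to 33.5 TPM. Myh2, the myosin of fast oxidative fibres, measured 2519, 2345 and 2870.0 TPM in LF and 1098, 1550.0 and 2082 TPM in HF controls (-0.64 ± 0.17, adjusted p = 0.0245) and was the only fast fibre gene called of 16. Under 4 alternatives Myh2 was not called: size factors (adjusted p = 0.0544), removal of the length and GC trend (adjusted p = 0.0664), the unfiltered fit (adjusted p = 0.0848) and the fit without those 3 high-Myh4 libraries (adjusted p = 0.108). Leaving out LF control 2, LF control 3 or HF control 1 also ended its call (adjusted p from 0.0734 to 0.091). Myh7 gave 0.03 ± 0.15 (adjusted p = 0.773) and Myh1 -0.68 ± 0.34 (adjusted p = 0.129). Slow myosin made up 47.9%, 43.6% and 46.9% of the 4 adult myosins' TPM in LF and 64.7%, 63.3% and 45.1% in HF controls. HF control 3 lay inside the LF range, and the difference of 11.5 percentage points had a two-sided exact permutation p of 0.3.

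The slow fibre list had 1 of 12 called, Myh7b, a slow-type myosin whose exons overlap Trpc4ap on the opposite strand, at 17.2, 12.8 and 18.8 against 24.6, 36.9 and 25.2 TPM (0.89 ± 0.18, adjusted p = 0.0235). Mybpc2, the fast myosin-binding protein C, was 8.89, 6.12 and 31.2 TPM in LF and 1.99, 0.265 and 1.07 TPM in HF controls, a difference of -2.62 ± 0.83 that was not called (adjusted p = 0.0534). LF control 3, with its high Mybpc2, also had the highest Myh4.

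Genes that tie the contractile apparatus to the membrane were lower in part. In the dystrophin complex and costamere list 6 of 23 were lower (8.04% over all genes) and 0 higher, with a median of -0.25. Sgcd, delta-sarcoglycan, measured 19.4, 22.4 and 22.4 TPM in LF and 8.86, 11.7 and 7.31 TPM in HF controls (-1.03 ± 0.22, adjusted p = 0.0157). Dag1, dystroglycan, stood at 60.3, 67.6 and 69.8 against 36.6, 44.0 and 34.9 TPM (-0.66 ± 0.15, adjusted p = 0.0177), and Vcl, vinculin, gave -0.61 ± 0.12 (adjusted p = 0.0137). Nos1, the neuronal nitric oxide synthase of the complex, was lower at -0.75. Of 28 sarcomere scaffold genes 7 were lower, led by the intermediate filament gene Synm (-0.68 ± 0.14, adjusted p = 0.0142), and 1 was higher, Tcap, the titin cap, at 7132, 5119 and 6600.0 against 8371, 9412 and 8916 TPM (0.62 ± 0.14, adjusted p = 0.036). The scaffold list had 4 lower and 3 higher with size factors, where 8.92% of all tested genes were lower and 9.05% higher. It had 3 lower and 2 higher with the length and GC trend removed.

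Excitation and calcium handling had 8 of 37 lower and 1 higher, against 8.04% and 2.44% of all genes, with a median of -0.20. Camk2a, a calcium- and calmodulin-dependent kinase, measured 22.1, 26.5 and 28.0 TPM in LF and 12.2, 12.7 and 12.6 TPM in HF controls (-0.86 ± 0.16, adjusted p = 0.0137). Scn4a, the skeletal muscle sodium channel, stood at 57.5, 76.7 and 82.0 against 25.1, 38.1 and 34.9 TPM (-1.01 ± 0.26, adjusted p = 0.0245). Jph1, which holds the junction of tubule and reticulum together, gave -0.51 ± 0.13, while Cacna1s, the voltage sensor of that junction, was the higher one at 0.51.

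Signals of growth and breakdown gave mostly lower calls, as did the tested genes together (8.04% lower and 2.44% higher). Of 39 tested genes 7 were lower and 1 higher, with a median of -0.15. Nedd4, a ubiquitin ligase, measured 128, 138 and 138 TPM in LF and 76.6, 96.0 and 67.1 TPM in HF controls (-0.65 ± 0.15, adjusted p = 0.0174). The lower genes also held parts of the growth arm, Rptor of the mTOR complex (-0.44 ± 0.13), Irs1 (-0.63) and Insr (-0.30), the insulin receptor. The higher one was Igf2, a growth factor, at 7.80, 7.49 and 6.84 against 9.54, 10.2 and 11.1 TPM (0.54 ± 0.11, adjusted p = 0.0305). The atrophy ligase genes Fbxo32 (-0.41 ± 0.16, adjusted p = 0.052) and Trim63 (-0.34 ± 0.20, adjusted p = 0.15) were not called. With the length and GC trend removed 3 genes of the list were lower and 1 higher.

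Lists of protein quality control gave 1 to 6 lower calls each, where 8.04% of all tested genes were called lower. The proteasome had 1 of 33 lower (Psmd1, -0.40 ± 0.15), autophagy and lysosome 6 of 47 lower, led by Atg2b (-0.79 ± 0.18, adjusted p = 0.0177), heat shock and chaperones 3 of 27 lower and the unfolded protein response 2 of 31. Of 38 antioxidant and glutathione genes 1 was lower and 1 higher: catalase (Cat), which removes hydrogen peroxide, at -0.43 ± 0.15 (adjusted p = 0.0405), and Gstt1, a glutathione transferase, at 0.56 ± 0.12 (adjusted p = 0.0337). Klf9, a glucocorticoid-responsive transcription factor, measured 37.97, 44.1 and 45.4 TPM in LF and 20.1, 23.7 and 20.7 TPM in HF controls (-0.84 ± 0.15, adjusted p = 0.0122), and Zbtb16, another glucocorticoid target, gave -0.79 ± 0.25 (adjusted p = 0.0416). These were the only called members of the 19 tested in their list. Cdkn1a, the cell cycle inhibitor p21, reached 45.5 TPM in HF control 2 against 6.34 to 10.3 TPM in the other controls and was not called (adjusted p = 0.296).

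The remaining leading lower genes came from several families. Efr3b, a membrane anchor of a lipid kinase, measured 3.90, 3.63 and 3.10 TPM in LF and 0.972, 1.32 and 1.25 TPM in HF controls (-0.95 ± 0.15, adjusted p = 0.0101). Arhgap5, a GTPase-activating protein gene with the largest difference among the lower genes that the naming rule allows, stood at 4.23, 5.12 and 5.43 against 0.432, 1.38 and 1.03 TPM (-1.52 ± 0.26, adjusted p = 0.0122). Pde4d, a cyclic AMP phosphodiesterase, gave -1.19 ± 0.25 and Aaed1, whose exons overlap Cdc14b on the same strand, -1.20 ± 0.25. Fam129a (-0.87 ± 0.14), the kinase genes Sbk3 (-0.73 ± 0.13) and Sbk2 (-1.06 ± 0.20), Pitpnc1, a phospholipid carrier (-0.67 ± 0.12), Man2a2, a Golgi mannosidase (-1.04 ± 0.18), Slc41a1, a magnesium transporter (-0.63 ± 0.12), and Klf12, a transcriptional repressor (-0.70 ± 0.14), had adjusted p from 0.0101 to 0.0137. The naming rule admitted these genes only if their groups did not overlap. Dgkz, Man2a2, Vcl, Synm and Atg2b also share exon positions with a gene on the opposite strand, and their levels carry the same doubt as that of Rpl28.

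All 25 endothelial markers and all 9 tested Schwann and nerve markers (of 17 listed) lay above the median gene. So did all 9 tested adipocyte markers (of 15 listed, median 0.39) and 41 of 42 interferon and antigen presentation genes. Of 25 endothelial markers 3 were called higher and 0 lower, against 2.44% and 8.04% of all tested genes. With size factors 7 were higher, against 9.05% of all tested genes. The median of the endothelial markers was 0.45, and 10 had HF controls wholly above LF controls, against 9.11% of tested genes. Egfl7, a secreted endothelial factor, measured 53.4, 48.0 and 49.0 TPM in LF and 82.0, 81.6 and 84.9 TPM in HF controls (0.82 ± 0.10, adjusted p = 0.0101). Its exons overlap Agpat2 on the opposite strand. Cldn5, a tight junction protein, stood at 8.81, 7.10 and 11.6 against 16.6, 17.1 and 18.3 TPM (0.98 ± 0.18, adjusted p = 0.0189), and Gpihbp1, which carries lipoprotein lipase to the capillary wall, gave 0.64 ± 0.14 (adjusted p = 0.0362).

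Summed endothelial marker TPM ran from 574 to 680 in LF and from 734 to 903 in HF controls, and no endothelial marker was at 0 in all 6. More cells of a type and more RNA per cell cannot be told apart in whole muscle. The part of this shift in Bcl6b, Id3, Hey1 and Fabp4, which endothelial cells also express, was not tested. Schwann and nerve markers had 0 of 9 called at limma's adjusted p below 0.05 (2 higher and 0 lower at an unadjusted p below 0.05) and a median of 0.48 in controls and 0.87 after laparotomy. In controls 8 of these 9 had HF libraries wholly above LF libraries, with summed TPM of 74.5 to 80.3 in LF and 104 to 119 in HF controls.

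Marker sums of other cell types overlapped between the groups or were lower in HF controls. Macrophage marker sums ran from 51.3 to 128 TPM in LF and 50.3 to 115 TPM in HF controls, and those of fibroadipogenic progenitors from 365 to 689 and 463 to 566 TPM. Smooth muscle and pericyte sums were 2401 to 2630 TPM in LF and 2200 to 2244 TPM in HF controls. That list holds Des, desmin, which also stands in the sarcomere scaffold list, so its sum does not measure these cells alone. Its median difference was -0.06. Of its 13 tested markers 2 were lower, Abcc9 (-0.52 ± 0.12) and Cspg4 (-0.37 ± 0.12), against 8.04% of all tested genes. Interferon and antigen presentation genes had a median of 0.37 with 0 of 42 called at limma's adjusted p below 0.05 (1 higher and 0 lower at an unadjusted p below 0.05). Among 48 tested matrix genes only Hspg2, perlecan of the basement membrane, was called (0.73 ± 0.15, adjusted p = 0.0295).

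The laparotomy mice give the same HF against LF contrast in libraries that the control contrast does not use, though both share 1 estimate of the spread. Of the 1127 control calls 869 (77.1%) were also called there, all 869 in the same direction, where 2796 genes (26% of those tested) were called in all. The 869 are 31.1% of the laparotomy calls. Relative to the median gene of each contrast, 1119 of the 1127 control calls lay on the same side after laparotomy (99.3%), against 82.2% of all tested genes. Across tested genes the differences correlated at a Pearson r of 0.77 and a Spearman coefficient of 0.81, a description over 10757 genes that are not independent replicates.

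Relative to the median gene of each contrast, all 30 leading genes lay on the same side after laparotomy, and 25 of them were called. The genes called lower in controls had a median of -0.43 in controls and -0.41 after laparotomy, with 803 of 865 called, and the higher genes 0.59 and 0.40, with 66 of 262 called. The split of calls after laparotomy moved with the scaling: as deposited, with the median gene at -0.19, 161 genes were higher (1.5%) and 2635 lower (24.5%), and with size factors 1001 were higher (9.31%) and 1154 lower (10.7%). With size factors 185 of the 262 and 604 of the 865 were called there in the same direction. Dlst gave -1.43 after laparotomy and Pdpr -1.59. Ribosomal proteins had a median of 0.30 there, with 13 of 77 called higher and 1 lower as deposited and 47 higher and 0 lower with size factors. Arhgap29 (0.05), Id3 (0.24), Bcl6b (0.29) and Cldn5 (0.26) were not called after laparotomy. As deposited, Arhgap29 ran the other way there, with means of 2.11 TPM in LF and 1.83 TPM in HF laparotomy libraries. Every HF laparotomy library lay below every LF laparotomy library for that gene. The difference between the contrasts was tested directly as an interaction in limma: 0 genes passed (331 at an unadjusted p below 0.05, 3.08% of genes), and the smallest adjusted p was 0.685. Array weights, whose estimate stopped before it converged, gave 55 such genes and the unfiltered fit 2.

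**Figure D5:**
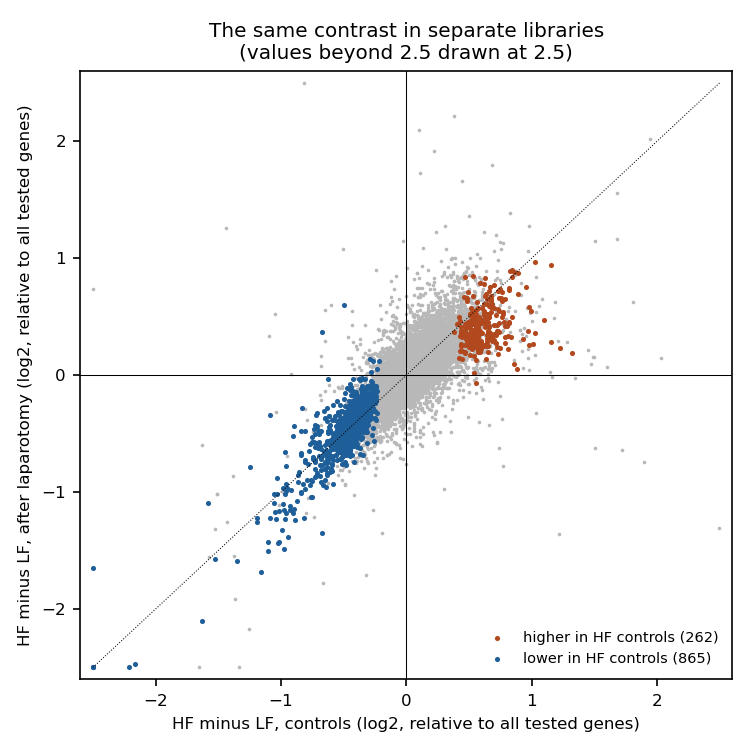
HF minus LF difference of each tested gene in controls (horizontal) against the same difference after laparotomy (vertical), both in log2(TPM + 1) relative to the median tested gene; genes called in controls are orange (262 higher) and blue (865 lower), the dotted line marks equal differences, and values beyond 2.5 are drawn at 2.5. Of the coloured points 1119 of 1127 lie in the lower left or upper right quadrant.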

How the data were processed

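RNA of 12 soleus libraries was extracted with QIAzol and a Qiagen column and made into libraries with a stranded Illumina kit after polyA pull-down, per the labels' protocols. The authors deposited gene-level TPM values. The tools kallisto and DESeq2 and the build GRCm38 stand in the submitters' processing notes with neither version nor role. Read counts, depth, read length and strand handling are not given in the sources, so no counting interval can be computed. Deposited TPM summed to between 958748 and 962831 over 30323 genes in the 6 controls, with 16993 to 18100 genes above 0. GENCODE M21, of the same build, gave symbols and positions for 29936 identifiers.

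The 10757 genes averaging 1 TPM or more over the libraries entered limma 3.58.1 (R 4.3.3) as log2(TPM + 1), fitted over all 12 libraries with group means, an intensity-dependent prior variance, 8 residual degrees of freedom and Benjamini-Hochberg adjustment over all tested genes, two-sided, threshold 0.05. A pseudocount of 1 understates the change of low genes. Replicate numbers follow accession order and pair nothing. Single shares were compared by exact permutation of 3 against 3. Near-identical copies were sought at 95% identity over 80% of a transcript. Members and gene lists were chosen with earlier results of these data known. Named were the 15 higher and 15 lower genes of smallest p and the 5 of largest difference in each direction, without predicted, Riken or copied genes and with groups that did not overlap; the 3 smallest p of each list; and 9 muscle genes. Not all are printed, and a few are not reported here. Exons of another tested gene overlap 3 of the 160 named genes on their own strand and 19 on the opposite one. The steps were tested on simulated data.

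The alternatives tried: unfiltered genes, a stricter 5 TPM filter, a pseudocount of 0.5 or 0.1, size factors, quantile normalization, rescaling without the 13 mitochondrially encoded and 10 highest genes, length and GC trend removal, a fit of only the libraries compared, robust eBayes, array weights (their estimate stopped with a convergence warning), a fast muscle covariate, leaving out libraries with Myh4 above 30 TPM, a threshold of 0.1 and leaving out each library.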

Additional observations from a re-analysis of the deposited data

How the results depend on the processing

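Control calls (1127) came to 121 with no filter (22738 genes), 1934 with size factors, 2086 with quantile normalization, 2240 with TPM rescaled without the 13 mitochondrially encoded and 10 highest genes, 3411 with array weights (whose estimate did not converge), 163 without the 3 libraries with Myh4 above 30 TPM and 2452 at a threshold of 0.1; leaving out each library gave 2 to 2080. Laparotomy calls (2796) came to 1487 with no filter, 1785 with the length and GC trend removed, 1362 in the fit of only the libraries compared, 7538 with array weights and 1048 to 4157 with a library left out. Interaction calls (0) came to 2 with no filter, 55 with array weights and 0 to 1 with a library left out, the 1 without LF control 3. The mitochondrially encoded share difference (-0.81 points) turned to 1.54 without LF control 2 and 0.17 without HF control 3, with a lowest value of -2.999 (without LF control 3). The slow myosin share difference ran from 8.03 to 17.8 points and that of the principal component from 27.2 to 35.4 with a library left out. The cause of these shifts was not tested.

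Of the 96 named genes that were called, none changed side of the median gene under any alternative. These genes were chosen by their calls in the same libraries. Their calls held for 96 of 96 with array weights, the fast muscle covariate or rescaling, 91 with size factors, 75 with the length and GC trend removed, 44 without the Myh4 libraries, 30 with no filter and 0 without LF control 2. No paired analysis was possible because the labels give no shared replicate numbers. Without counts, precision at low TPM cannot be judged.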
